A study of Homo sapiens with 2 samples.

Results

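The core genes of the epithelial-mesenchymal transition (EMT) were taken as a fixed list of 10: the epithelial adhesion genes CDH1 and EPCAM, the mesenchymal genes CDH2, VIM and FN1, and the transcription factors ZEB1, ZEB2, SNAI1, SNAI2 and TWIST1. All 10 were found among the 18377 genes that the arrays measured with probe sets annotated to exactly 1 gene symbol. EBC1 is an established human lung squamous carcinoma line with an amplified MET gene, and served as the parental line. EBC1-R is the subline that survived stepwise exposure of EBC1 to the MET kinase inhibitor PHA-665752, and it was kept in medium with 3 µM of MET inhibitor. Both were hybridised to 1 whole-transcript array each, so every value below is 1 measurement with no error, no difference could be tested, and resistance cannot be told apart from the presence of the drug. Whether EBC1-R is 1 clone or a mixed population is not stated in the labels.

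In this transition, epithelial cells give up E-cadherin junctions and apical-basal polarity and take on a motile form with vimentin filaments, N-cadherin and a fibronectin matrix. SNAI1, SNAI2, ZEB1, ZEB2 and TWIST1 drive it, the zinc-finger factors by binding E-boxes in promoters of epithelial genes such as CDH1, and microRNAs of the miR-200 family hold it back by repressing ZEB1 and ZEB2. In lung cancer the transition is a known route by which cells come to tolerate inhibitors of MET and EGFR. Levels are given as deposited log2 intensities, and a difference is always EBC1-R minus EBC1, so 1 log2 unit is 2-fold. A percentile says how bright a gene's signal was among all probe sets of the array. Probe sets bind their targets with different strength, so it does not order genes by amount of transcript.

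The core genes did not share a direction toward the mesenchymal side in EBC1-R. SNAI1 was 1.85-fold higher, CDH2 1.58-fold higher and FN1 1.42-fold higher, while ZEB1 was 1.60-fold lower. The other 6, CDH1, EPCAM, VIM, ZEB2, SNAI2 and TWIST1, differed by no more than 0.14 log2 units. None of the 10 reached 2-fold, a size that 2.14% of all measured genes reached (1.26% higher and 0.887% lower). At least 1.5-fold, 2 members were higher and 1 was lower, where 4.41% of all genes were that much higher and 3.16% that much lower (7.57% either way). The median difference over the 10 members was -0.08, beside -0.03 over all genes. By any amount, 4 members were higher and 6 lower, beside 43.3% and 55.5% of all genes. Counting a lower CDH1 or EPCAM and a higher value of any other member as the direction of the transition, 4 members lay on that side and 6 on the other. This tally weighs all sizes alike. On the other side only ZEB1 differed by more than 0.14 log2 units. On the transition side SNAI1, CDH2 and FN1 did, and EPCAM did not.

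**Figure D1:**
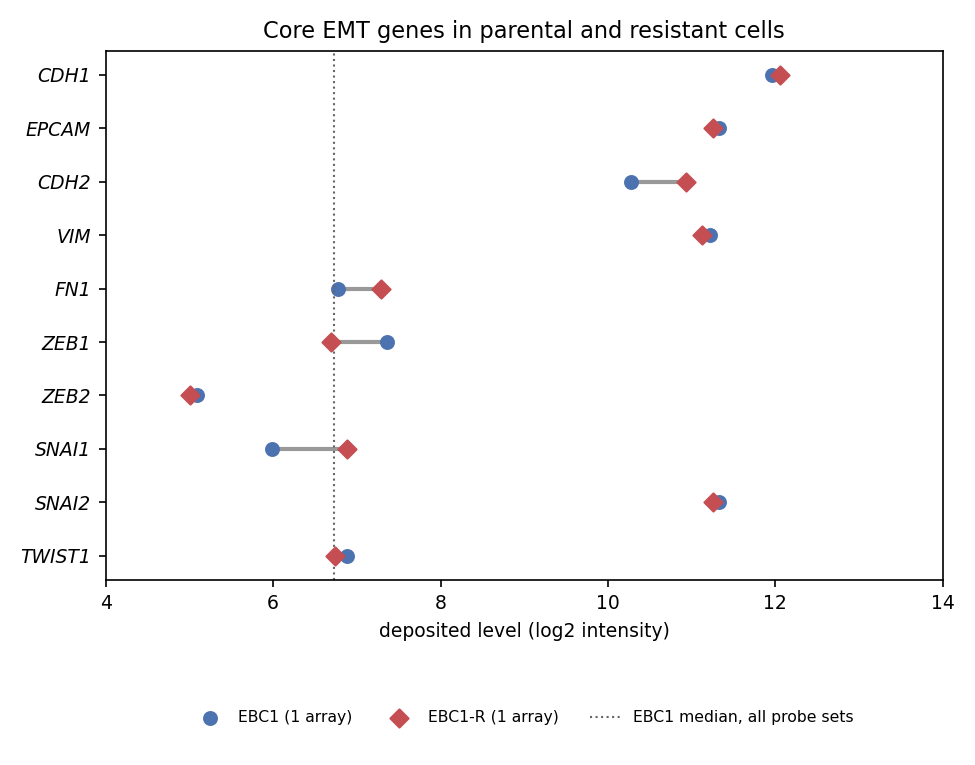
Deposited log2 intensity of each core EMT gene in EBC1 (circle, 1 array) and EBC1-R (diamond, 1 array); grey bars join the 2 values and the dotted line is the EBC1 median over all probe sets, 6.73. The longest bars are those of SNAI1, ZEB1, CDH2 and FN1, and the values of CDH1, EPCAM, VIM, ZEB2, SNAI2 and TWIST1 nearly coincide.

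The epithelial adhesion genes differed little between the lines. CDH1, which encodes E-cadherin, the adhesion receptor of epithelial junctions, had levels of 11.96 (EBC1) and 12.06 (EBC1-R). That difference of 0.10 had the opposite sign to a loss of E-cadherin, and 66.6% of all genes differed by at least as much. EPCAM, a homophilic adhesion protein of epithelia, had levels of 11.33 (EBC1) and 11.25 (EBC1-R). It was measured by 2 probe sets annotated to the same transcripts, which went from 11.39 to 11.35 and from 11.26 to 11.15. The signals of CDH1 and EPCAM lay above the 97th percentile of probe sets on both arrays, with CDH1 at the 98.9th on each.

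Of the mesenchymal structural genes, CDH2 and FN1 were higher in EBC1-R and VIM was not. CDH2, which encodes N-cadherin, had levels of 10.27 (EBC1) and 10.93 (EBC1-R), a difference of 0.66 that 5.88% of all genes equalled or exceeded. Among the 1076 genes whose mean level lay within 0.5 log2 units of that of CDH2, 9.76% did. Its signal was at the 93.2nd percentile of probe sets in EBC1. FN1, the matrix glycoprotein fibronectin, had levels of 6.78 (EBC1) and 7.29 (EBC1-R), close to the middle of both arrays. VIM, the intermediate filament protein vimentin, was at 11.22 and 11.12, a difference of -0.09 from unrounded values. VIM stood at the 97.3rd percentile in EBC1 and the 97.0th in EBC1-R.

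Of the transcription factors, SNAI1 and ZEB1 differed in opposite directions, and ZEB2, SNAI2 and TWIST1 differed little. SNAI1, a zinc-finger repressor of CDH1, had levels of 5.99 (EBC1) and 6.88 (EBC1-R), the largest difference among the 10 at 0.89. It went from the 34.8th to the 52.8th percentile of probe sets, and 2.87% of all genes differed by at least as much. Among the 3666 genes whose mean level lay within 0.5 log2 units of that of SNAI1, 2.07% did. ZEB1, which represses CDH1 and the miR-200 loci, had levels of 7.36 (EBC1) and 6.69 (EBC1-R), a difference of -0.67. A difference of that size or larger was seen in 5.62% of all genes and in 6.48% of the 3242 genes of similar level. ZEB1 and SNAI1, both repressors of CDH1, lay on opposite sides of 0. Each was measured by 1 probe set and stayed below 7.41, the median of the genes' higher values, on both arrays. Whether these 2 signals stand above background is not known.

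SNAI2 (Slug), the close relative of SNAI1, had levels of 11.33 (EBC1) and 11.25 (EBC1-R). Its signal lay at the 97.6th percentile in EBC1 and the 97.4th in EBC1-R. TWIST1, a basic helix-loop-helix factor, was at 6.88 and 6.74. ZEB2 averaged 5.09 and 5.01, at the 16.4th and 15.3rd percentiles. Its main probe set differed by -0.16, and its other one, annotated to 1 cDNA record, was listed at the same value of 4.67 on both arrays.

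**Figure D2:**
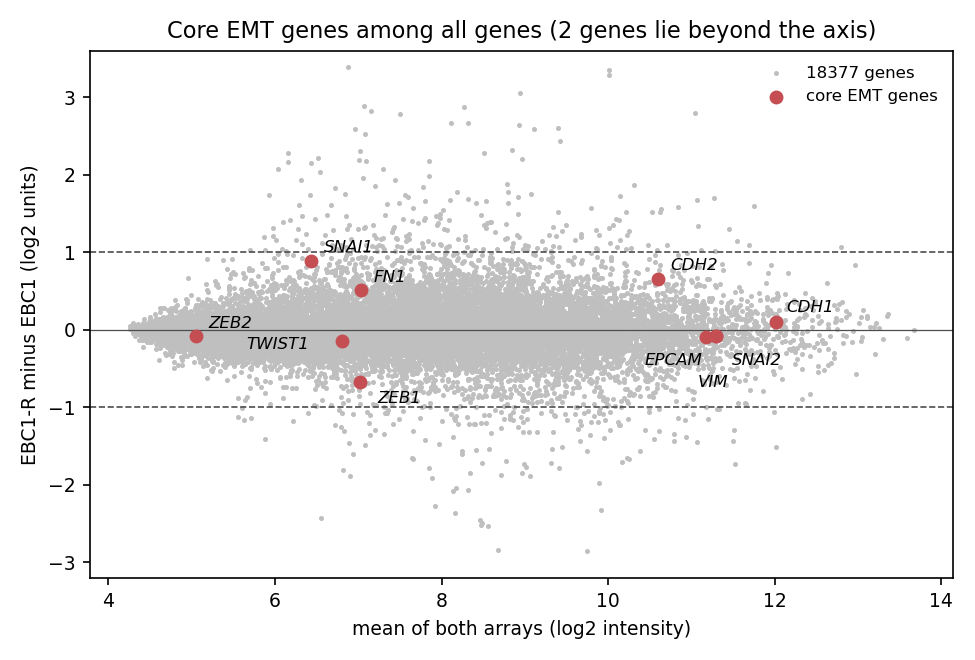
Difference (EBC1-R minus EBC1, log2 units) against the mean of both arrays (log2 intensity) for all 18377 genes (grey) with the 10 core EMT genes in red; dashed lines mark 2-fold, and 2 genes beyond the axis are not drawn. No core EMT gene lies outside the dashed lines; SNAI1 at 0.89 and ZEB1 at -0.67 are the extremes.

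Of the 10 members, 5 (CDH1, EPCAM, CDH2, VIM and SNAI2) exceeded a level of 7.41 on at least 1 array, the median of the genes' higher values. The other 5 (FN1, ZEB1, ZEB2, SNAI1 and TWIST1) did not. No detection calls were used, so it is not known whether the latter stand above background. Where a signal is above background, a difference at low intensity can understate the change in transcript. Where it is not, the difference does not measure such a change. Probe sets of the same gene, over 374 genes above that level, differed from each other in their EBC1-R minus EBC1 values with a pooled SD of 0.16. This SD describes agreement within 1 pair of arrays and not the spread between cultures. Among the 5 members above that level, the difference of CDH2 exceeds it and those of CDH1, EPCAM, VIM and SNAI2 do not; it does not describe the 5 members below that level.

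The miR-200 family is shown by its mature sequences because these microRNAs repress ZEB1 and ZEB2, the factors on which the lower ZEB1 value bears. The family forms 2 groups by seed (bases 2 to 8, in capitals). The sequences are from RefSeq (GRCh38.p14), written 5′ to 3′ on the plus strand.
hsa-miR-200c-3p, chr12:6963742-6963764: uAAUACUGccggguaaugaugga
hsa-miR-200b-3p, chr1:1167160-1167181: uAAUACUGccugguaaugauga
hsa-miR-429, chr1:1169055-1169076: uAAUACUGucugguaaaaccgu
hsa-miR-141-3p, chr12:6964155-6964176: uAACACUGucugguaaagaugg
hsa-miR-200a-3p, chr1:1167916-1167937: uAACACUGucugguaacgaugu

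The loci on chromosome 12 were higher in EBC1-R and those on chromosome 1 were not. MIR200C had levels of 7.35 (EBC1) and 8.29 (EBC1-R), which is 1.92-fold higher. MIR141, beside it, was at 6.27 and 6.93, or 1.58-fold higher. On chromosome 1, MIR200B was at 6.64 and 6.59, MIR200A at 5.28 and 5.03 and MIR429 at 6.13 and 6.01 (MIR200B is named after its value was seen). Each seed group therefore holds 1 locus that was higher and at least 1 that was slightly lower. Only MIR200C exceeded a level of 7.41, on the EBC1-R array alone, so whether the other loci stand above background is not known. The probe sets are annotated to the loci and not to the mature arms, and the labelling was that of a whole-transcript cDNA kit, so these are not levels of the mature microRNAs. Whether the ZEB1 difference is tied to these loci was not tested. Of the 7 loci listed, 5 were measured; MIR205 and MIR205HG had no probe set of their own.

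The pathway around the core genes was described by 14 related lists with 218 further genes, of which 199 were measured. A difference of 2-fold or more was found in 10 of them (5.03%, beside 2.14% of all genes), 8 with the higher value in EBC1-R and 2 with the lower (1.26% and 0.887% of all genes). By any amount, 41.7% of the 199 were higher and 56.3% lower, close to the 43.3% and 55.5% of all genes, against which the counts of higher and lower genes in each list below are to be read. The median over the 199 was -0.06, beside -0.03 over all genes. The lists were chosen with earlier results known, so these shares are a description.

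**Figure D3:**
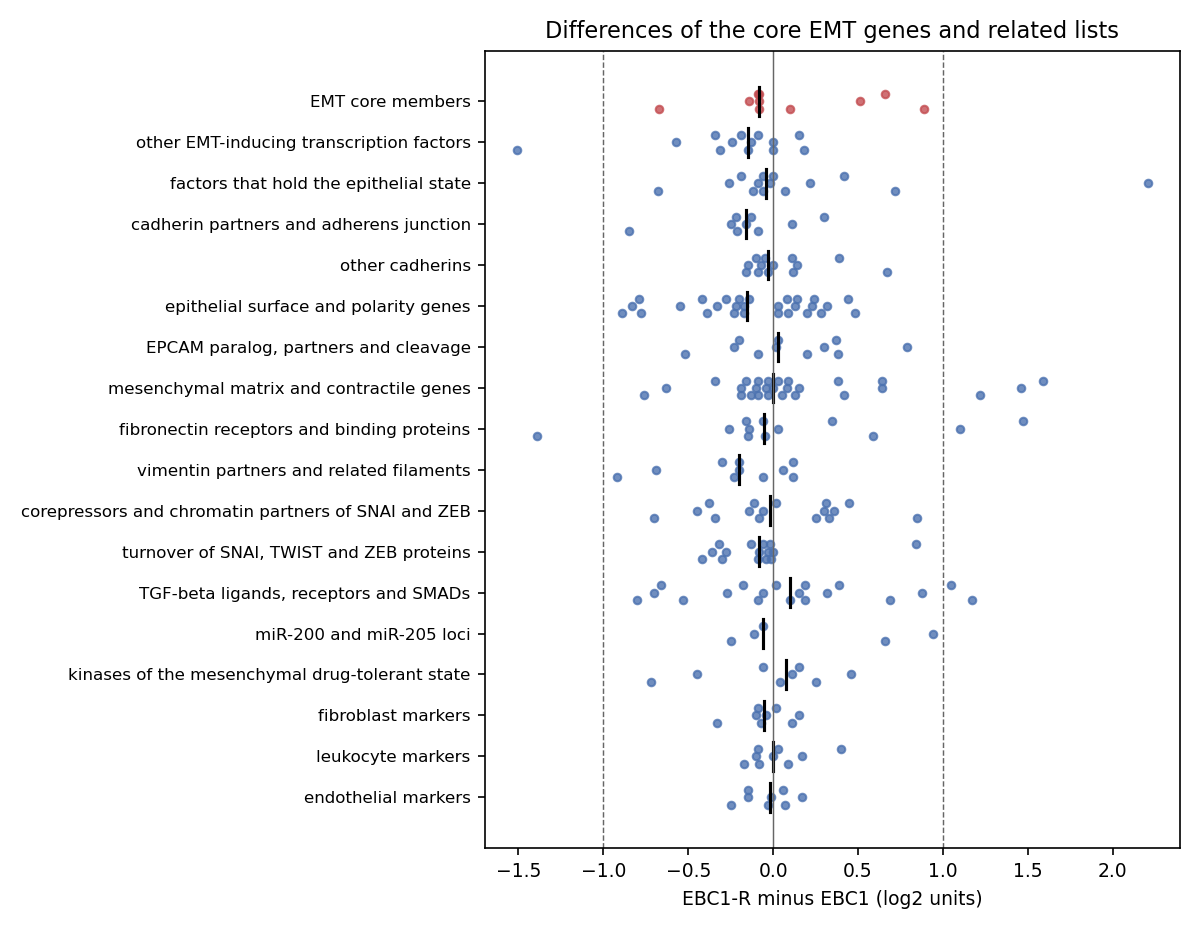
Difference (EBC1-R minus EBC1, log2 units) of every measured gene in the core EMT list (red), 14 related lists and 3 lists of markers of other cell types (blue); each point is 1 gene, black ticks are list medians and dashed lines mark 2-fold. Medians run from -0.20 to 0.10, with a few genes far from their list, ELF3 at 2.21 the farthest.

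Among other factors that can drive the transition, SOX9 differed most. Of 13 measured, 10 were lower and 2 higher, where 55.5% of all genes were lower, with a median of -0.15 (9 lower and 4 higher after quantile normalization, median centring or lowess). SOX9, a factor of progenitor cells, had levels of 10.20 (EBC1) and 8.69 (EBC1-R), 2.84-fold lower. SOX4 was 1.48-fold lower, and FOXC2 and LBX1 were higher by 0.18 and 0.15. Of 14 measured factors that hold the epithelial state, 8 were lower and 5 higher, with a median of -0.04. ELF3, an ETS factor of epithelia, was at 7.86 and 10.06, 4.62-fold higher. GRHL1, a grainyhead factor, was at 6.12 and 6.84, 1.65-fold higher. It stayed below 7.41 on both arrays, so whether it stands above background is not known. FOXA2 was 1.61-fold lower. The grainyhead factor GRHL2 (10.04 and 10.01) and the epithelial splicing regulator ESRP2 (9.81 and 9.88), named after their values were seen, hardly differed.

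The proteins that tie cadherins to the cytoskeleton differed little at the transcript level. Of 9 measured genes of the adherens junction, 7 were lower and 2 higher (55.5% of all genes were lower), with a median of -0.16. NECTIN1, an adhesion molecule of these junctions, was 1.80-fold lower, from 7.77 to 6.91, and the plakoglobin gene JUP differed by -0.25. The beta-catenin gene CTNNB1, named after its value was seen, was at 11.30 and 11.14. Of 13 other cadherins, 5 were higher and 7 lower, with a median of -0.03 (7 higher and 6 lower after lowess). CDH3, which encodes P-cadherin, had levels of 10.73 (EBC1) and 11.40 (EBC1-R). Its 1.60-fold difference was close to that of CDH2, whereas the remaining 12 cadherins stayed below 7.41 on both arrays and differed by at most 0.39, the value of CDH8.

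Epithelial surface and polarity genes differed both ways by small amounts, and the larger differences were lower values in EBC1-R. Of 28 measured, 13 were higher and 15 lower, with a median of -0.16, and none reached 2-fold. At least 1.5-fold, 0 were higher and 4 lower. The shares over all genes were 4.41% higher and 3.16% lower. The simple-epithelium keratins KRT19 (12.77 and 11.88) and KRT8 (12.83 and 12.01) were 1.86-fold and 1.77-fold lower. KRT18, their partner, and the membrane protease PRSS8, both named after their values were seen, were 1.72-fold and 1.73-fold lower. PALS1, a scaffold of the apical polarity complex, and the mucin MUC1 were higher by 0.48 and 0.44. MUC1 (6.64 and 7.08) stayed below 7.41 on both arrays, so whether it stands above background is not known. Lower keratins were thus found beside CDH1 and EPCAM values that differed by at most 0.10. Of 11 genes around EPCAM, 7 were higher and 4 lower. ADAM17, a protease that sheds the EPCAM ectodomain, was 1.73-fold higher, from 9.64 to 10.43, and NCSTN, a subunit of the gamma-secretase that cuts the remaining stub, was higher by 0.38. TSPAN8 was 1.44-fold lower, from 5.50 to 4.97.

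Mesenchymal matrix and contractile genes had a median of 0.00 over 27 measured members, 13 higher and 13 lower. At least 2-fold higher were THBS1, a matrix glycoprotein that can activate latent TGF-beta (10.95 and 12.54, 3.02-fold), FSTL1, a secreted glycoprotein (6.12 and 7.58, 2.76-fold), and LOXL2, a lysyl oxidase reported to interact with SNAI1 (9.28 and 10.50, 2.33-fold). FSTL1 exceeded 7.41 on the EBC1-R array alone, so whether its EBC1 value stands above background is not known. COL6A1 was 1.70-fold and TNC (tenascin C) 1.55-fold lower. LOX (7.90 and 8.54, 1.56-fold) and COL5A1 (7.08 and 7.71, 1.55-fold), both named after their values were seen, were higher. At least 1.5-fold, 5 of the 27 were higher and 2 lower. The shares over all genes were 4.41% higher and 3.16% lower. The type I collagen gene COL1A1 (7.64 and 7.61) and the smooth muscle actin gene ACTA2 (7.31 and 7.39), named after their values were seen, hardly differed. Of 10 partners and relatives of vimentin, 7 were lower (55.5% of all genes were), with a median of -0.20. The cytolinker gene PLEC was 1.89-fold and the lamin gene LMNA 1.61-fold lower. PLEC and LMNA alone of the 10 exceeded 7.41 on either array. Whether the others, which enter that count and median, stand above background is not known.

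The integrin subunit genes ITGA5 and ITGAV, whose products form fibronectin receptors, were at least 2-fold higher. Among 12 measured receptors and binding proteins, 5 were higher and 7 lower, with a median of -0.06. ITGA5, the alpha subunit of the main fibronectin receptor, had levels of 7.24 (EBC1) and 8.70 (EBC1-R), 2.76-fold higher. ITGAV was at 10.16 and 11.25, 2.14-fold higher. ITGB1, the beta subunit that pairs with both, was at 10.93 and 10.78 and is named after its value was seen. TGM2, a transglutaminase that binds fibronectin, was at 11.63 and 10.24, 2.62-fold lower.

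TGF-beta signalling is the best known inducer of the transition, and its genes differed in opposite directions. Of 19 measured, 11 were higher and 8 lower, with a median of 0.10. The ligand gene TGFB2 had levels of 9.32 (EBC1) and 10.38 (EBC1-R), 2.08-fold higher, and the receptor gene TGFBR1 at 7.61 and 8.79, 2.25-fold higher. The target TGFBI was 1.84-fold higher and is named after its value was seen. SKI, which represses SMAD transcription, was 1.74-fold lower and SMURF2, a ubiquitin ligase of the pathway, 1.62-fold lower. TGFBR2, the receptor that binds the ligand first, was 1.58-fold lower and the ligand gene TGFB1 1.45-fold lower, both named after their values were seen. SMAD2, SMAD3 and SMAD4, named likewise, differed by 0.19, -0.27 and 0.19.

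**Figure D4:**
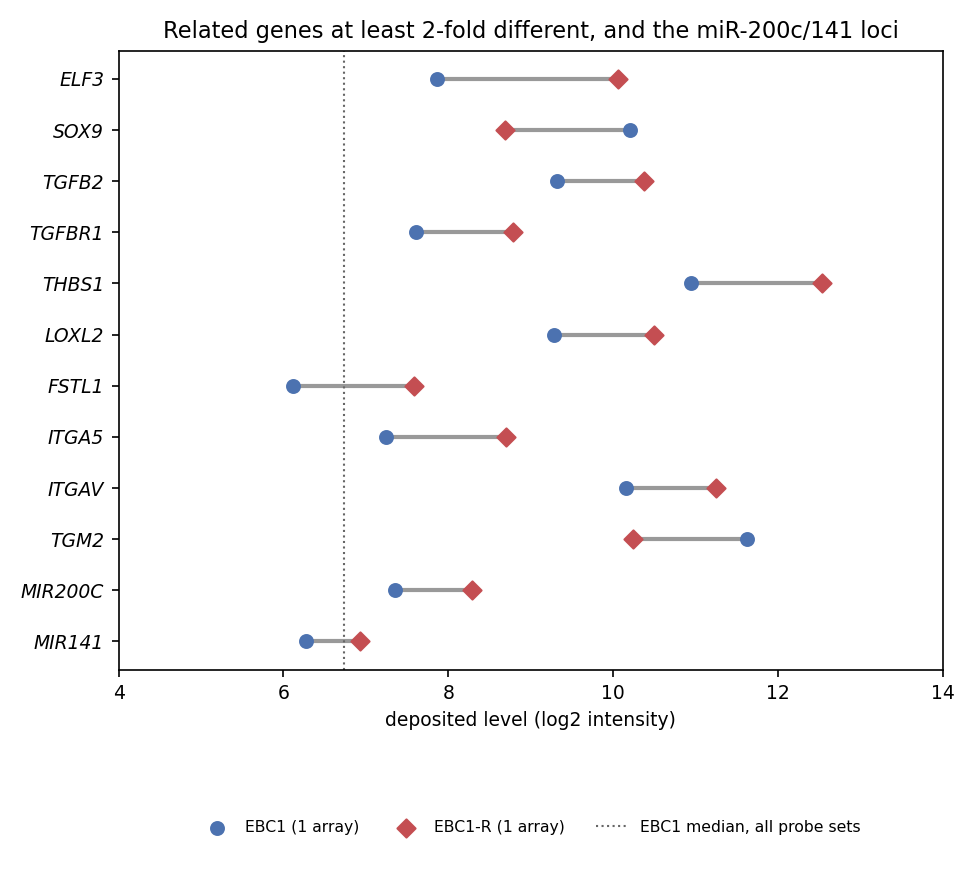
Deposited log2 intensity in EBC1 (circle, 1 array) and EBC1-R (diamond, 1 array) of the 10 genes of the related lists that were at least 2-fold different, with MIR200C and MIR141; the dotted line is the EBC1 median over all probe sets. SOX9 and TGM2 are the 2 that were lower in EBC1-R.

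Genes that act on the SNAI, TWIST and ZEB proteins mostly differed by small amounts. Of 15 genes for turnover of these proteins, 13 were lower (55.5% of all genes were), with a median of -0.08, beside -0.03 over all genes. FBXL14, a ubiquitin ligase subunit that targets SNAI1, was at 8.45 and 9.30, 1.79-fold higher. FBXO45 was 1.34-fold lower, and GSK3B, a kinase that marks SNAI1 for degradation and is named after its value was seen, was lower by 0.30 (10.76 to 10.45, from unrounded values). The corepressor list was evenly split, with 8 of 16 higher. AJUBA, a LIM protein that SNAI1 recruits, was 1.80-fold higher and the histone methyltransferase SUV39H1 1.63-fold lower. Among 8 receptor kinases, AXL, which is often high in mesenchymal drug-tolerant cells, was at 11.78 and 11.06, 1.64-fold lower, and EGFR was lower by 0.45. IGF1R and FGFR1 were higher by 0.46 and 0.25, though IGF1R (6.74 and 7.20) stayed below 7.41 on both arrays. MET, given for context, was at 13.17 and 13.21.

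The markers of other cell types differed little. Of 8 fibroblast, 9 leukocyte and 8 endothelial markers measured, none differed 2-fold, and the list medians were between -0.06 and 0.00. On both arrays, fibroblast markers lay between 4.54 and 6.90 and endothelial markers between 4.84 and 7.08. Among the leukocyte markers, CD68 (11.04 and 11.45), a lysosomal protein that is not restricted to leukocytes, was the 1 above 7.41. The markers of the epithelial label itself (EPCAM, CDH1, KRT8, KRT18 and KRT19) had levels of 11.25 or more on both arrays. In RNA from a whole culture, fewer cells with a transcript and less of it per cell cannot be told apart, so co-occurrence of CDH1 and CDH2 on an array does not show that 1 cell holds both. The deposited columns had nearly the same distribution, with medians of 6.73 and 6.71, so a change shared by most genes would not be seen. ABCB1, the drug efflux pump gene in the study's title, was at 5.37 and 12.65.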

How the data were processed

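RNA of EBC1 and EBC1-R cells was measured on 1 array each. The table the authors deposited has 1 value for each of its probe sets in each line. From their range (4.21 to 14.22) these were read as log2 intensities as deposited; what the authors did to make them is not stated, but both columns already had nearly the same distribution (medians 6.73 and 6.71). The log base, the background correction and the normalization are not stated in the labels. Per the labels' protocols the array was one with 22282 probe sets, whereas the deposited table holds 28869 and matches the annotation of another, whole-transcript array. Of these, 19310 carried 1 gene symbol and were averaged per gene (18377 genes); 1752 with several symbols and 7807 with none were left out of the main values.

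Differences, counts and list medians were computed with Python 3.11.15, pandas 2.3.3 and numpy 2.4.6, and the calculation was checked on simulated data. With 1 array per group there was no test, and the number of arrays limits the precision. The members and gene lists were chosen with earlier results of these data known. The text names every core gene, every related gene at least 2-fold different, and otherwise up to 2 genes with the largest increase and up to 2 with the largest decrease of a list, with MET and ABCB1 for context; other genes are marked as named after their values were seen. Alternatives were quantile normalization, median centring, removal of a lowess trend (span 0.2, statsmodels 0.14.6), a pseudocount of 16, the brightest probe set, probe sets with other symbols too, thresholds of 1.5-fold and 3-fold, and level filters. MicroRNA sequences and gene order came from RefSeq tables (GRCh38.p14); the array's own build is not stated in the labels.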

Additional observations from a re-analysis of the deposited data

How the results depend on the processing

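The 10 member differences were recomputed under 6 alternatives (quantile normalization, median centring, lowess, pseudocount, brightest probe set, probe sets with other symbols). All 60 values moved by no more than 0.16, the pooled SD between probe sets, and all 10 members kept their sign. Some of the 60 could not move. No probe set named a member together with other symbols, so that alternative left every member unchanged. For the 8 members with 1 probe set, the brightest probe set was the only one. A pseudocount can shrink the difference of such a member but cannot change its sign. Median centring added the same small amount to every difference. SNAI1 ranged from 0.75 to 0.95, ZEB1 from -0.68 to -0.60, CDH2 from 0.65 to 0.68 and FN1 from 0.45 to 0.55. With a 1.5-fold threshold the count of core genes went from 0 to 3, and that of related genes from 10 to 37 (18.6% of the 199, beside 7.57% of all genes). Keeping only genes with a mean level at or above the median took the 2-fold count of related genes from 10 to 9. Of 49 recomputed list medians, 44 moved by no more than 0.16. The other 5 moved when only genes with a mean level at or above the median were kept, which leaves fewer genes: other cadherins 0.67, fibronectin receptors 0.35, vimentin partners -0.80, miR-200 and miR-205 loci 0.94 and leukocyte markers 0.40. The values for other cadherins, the microRNA loci and leukocyte markers are those of CDH3, MIR200C and CD68 alone. The value for vimentin partners rests on PLEC and LMNA alone. No fibroblast or endothelial marker passed that filter. Leaving out a replicate was not possible with 1 array per group. No paired analysis was possible because each group has 1 array. Background was not measured, so whether FN1, ZEB1, ZEB2, SNAI1 and TWIST1, which lay under the level filter, exceed it is not known.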

Other observations

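Genes beside the core genes on the chromosome, in RefSeq's gene order, were looked at after the values were seen, taking the 5 nearest measured genes on each side. Over all genes, 55.5% were lower and 43.3% higher. Around SNAI1, 9 of 10 neighbours were lower in EBC1-R, with a median of -0.22, among them CEBPB (11.16 and 10.76) and B4GALT5 (11.54 and 10.91), while SNAI1 was higher. Around CDH2, 8 of 10 neighbours were lower, with a median of -0.10 and none higher by more than 0.21. CDH1 and CDH3 are neighbours, and CDH3 differed by 0.67 and CDH1 by 0.10. The other neighbours of that pair lay between -0.45 and 0.32. Around ZEB1, 5 neighbours were higher and 5 lower, with SVIL and NRP1 each lower by 0.85.

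FBXL14 stood apart from these. Of its 10 neighbours on chromosome 12, 7 were higher, with a median of 1.12, among them RAD52 and ERC1, each higher by 1.52. MIR200C lies on the same chromosome, and 7 of its 10 neighbours were higher, MIR141 included, with a median of 0.10 and values from -0.32 for C12orf57 to 0.68 for LRRC23. Whether copy number differs between the lines at these loci was not tested.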
